A study of Mus musculus with 24 samples.

Results

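The 10 miRNAs described here form the proximal cluster of the imprinted Dlk1-Dio3 domain on mouse chromosome 12, between the long non-coding RNA Meg3 and the end of the retrotransposon-derived gene Rtl1: mir-673, mir-493, mir-337, mir-540, mir-665, mir-431, mir-433, mir-127, mir-434 and mir-136, as the count table spells them. They were taken by name from that table, which lists 510 mouse miRNAs, of which 364 had a read in any library. All 10 were listed and had reads, and 9 of them were among the 237 miRNAs with enough reads to be tested. miR-493 was not.

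Small RNA libraries were sequenced from the mammary tissue of 24 samples in 8 groups of 3. The tumor groups were MMTV-PyMT females, heterozygous for a polyoma middle T transgene driven by the mouse mammary tumor virus promoter in mammary epithelium, on the FVB strain, and they were taken at week 6 (hyperplasia), week 8 (adenoma), week 10 (early carcinoma) and week 12 (late carcinoma). The normal groups were mammary glands of FVB females without the transgene at the same weeks. The tissue was bulk, snap-frozen mammary gland, in which fewer cells of a type and less RNA per cell cannot be told apart, and tissue taken at the early stages still holds normal gland. The comparison asks which miRNAs differ between tumor and normal gland as the disease advances.

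The Dlk1-Dio3 domain is imprinted: the protein-coding genes Dlk1, Rtl1 and Dio3 are expressed from the paternal chromosome, and the non-coding RNAs and their miRNAs from the maternal chromosome. The miRNAs are cut from long maternal transcripts. Those antisense to Rtl1 pair perfectly with its paternal mRNA and are known to direct its cleavage, which is best studied in placenta and fetal tissue. The domain is strongly expressed in embryonic, placental, muscle and neural tissue and falls in many tissues after birth.

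On mm9, with the GENCODE vM1 annotation, the 10 hairpins covered 23.4 kb, chr12:110810200-110833608, all on the plus strand. miR-673 (chr12:110810200-110810290) lay 0.3 kb after the annotated end of Meg3. miR-493 (chr12:110818443-110818525), miR-337 (chr12:110824000-110824096), miR-540 (chr12:110824281-110824364) and miR-665 (chr12:110824524-110824617) followed. These 5 were in no annotated gene. miR-431 (chr12:110828657-110828747), miR-433 (chr12:110829925-110830048), miR-127 (chr12:110831042-110831138), miR-434 (chr12:110832716-110832809) and miR-136 (chr12:110833527-110833608) all lay inside the coding exon of Rtl1, which is read from the minus strand (chr12:110827404-110838540). Only these 5 are therefore antisense to Rtl1 in this annotation.

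The mature sequences of the 5 miRNAs antisense to Rtl1, and of 2 others whose seeds recur elsewhere, are given here from 5′ to 3′, as RefSeq gives them for GRCm38.p6, with the seed (bases 2 to 8) in capitals.
miR-127-5p: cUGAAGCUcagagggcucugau
miR-127-3p: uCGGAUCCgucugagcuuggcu
miR-434-5p: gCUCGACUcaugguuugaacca
miR-434-3p: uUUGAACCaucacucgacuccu
miR-136-5p: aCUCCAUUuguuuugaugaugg
miR-136-3p: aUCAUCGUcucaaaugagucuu
miR-431-5p: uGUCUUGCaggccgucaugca
miR-431-3p: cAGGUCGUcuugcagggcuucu
miR-433-5p: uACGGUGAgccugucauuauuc
miR-433-3p: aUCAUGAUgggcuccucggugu
miR-673-5p: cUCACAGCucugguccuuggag
miR-673-3p: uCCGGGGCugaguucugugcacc
miR-540-5p: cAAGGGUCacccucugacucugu
miR-540-3p: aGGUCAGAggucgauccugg

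All 20 mature arms of the 10 miRNAs were found letter for letter in their mm9 hairpins. The 20 arms carried 20 different seeds, so the cluster holds no seed family of its own. Among 1738 mature mouse miRNAs, 18 of the 20 had a seed that no other gene carried. The exceptions were miR-673-5p, which shares its seed with miR-6985-3p, and miR-540-3p, which shares its seed with miR-6915-5p. All 10 arms of the 5 miRNAs inside Rtl1 were fully complementary to the annotated Rtl1 transcript, in its coding part. The Rtl1 site of miR-127-3p, read on the Rtl1 strand, is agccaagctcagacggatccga, and that of miR-136-5p is ccatcatcaaaacaaatggagt. The count table gives 1 value for each hairpin, so the 2 arms could not be separated. 2 annotated hairpins on the other strand, Mir3544 over miR-337 and Mir3071 over miR-136, had no entry of their own in the count table.

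Each library held between 1032241 and 2213972 miRNA counts in tumor and between 1626022 and 3931375 in normal gland. Levels are given below as CPM, counts scaled to a common library total with the trimmed mean of M values (TMM). A test result is called where edgeR's quasi-likelihood test gave a Benjamini-Hochberg adjusted p under 0.05 over all 237 miRNAs. Skeletal muscle markers (miR-1, miR-133 and miR-206) were above 5000 summed CPM in 7 libraries, namely normal week 6 replicates 1 and 2, normal week 10 replicate 3, normal week 12 replicate 1, tumor week 6 replicates 1 and 2, and tumor week 10 replicate 3. In the other libraries they summed to between 39.9 and 2465 CPM. Results are therefore also given with these 7 libraries left out, in a fit of the other 17 libraries.

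The cluster was carried by 1 miRNA. miR-127 had between 8812 and 164499 counts per library and ranked 10 by mean CPM among all miRNAs listed. It made up 93.9% to 96.3% of the cluster's counts in normal gland and 95.0% to 96.4% in tumor, so its share differed little between the tissues. miR-434 ranked 82, with 299 to 5227 counts. miR-136, miR-431, miR-337, miR-433, miR-673, miR-540 and miR-665 had between 1 and 654 counts per library. Together the 10 miRNAs were 4.23% to 4.92% of all counts in normal gland at week 6 and 1.65% to 2.10% in tumors of that week. At week 12 they were 0.838% to 1.75% in normal gland and 0.800% to 1.24% in tumor.

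**Figure D1:**
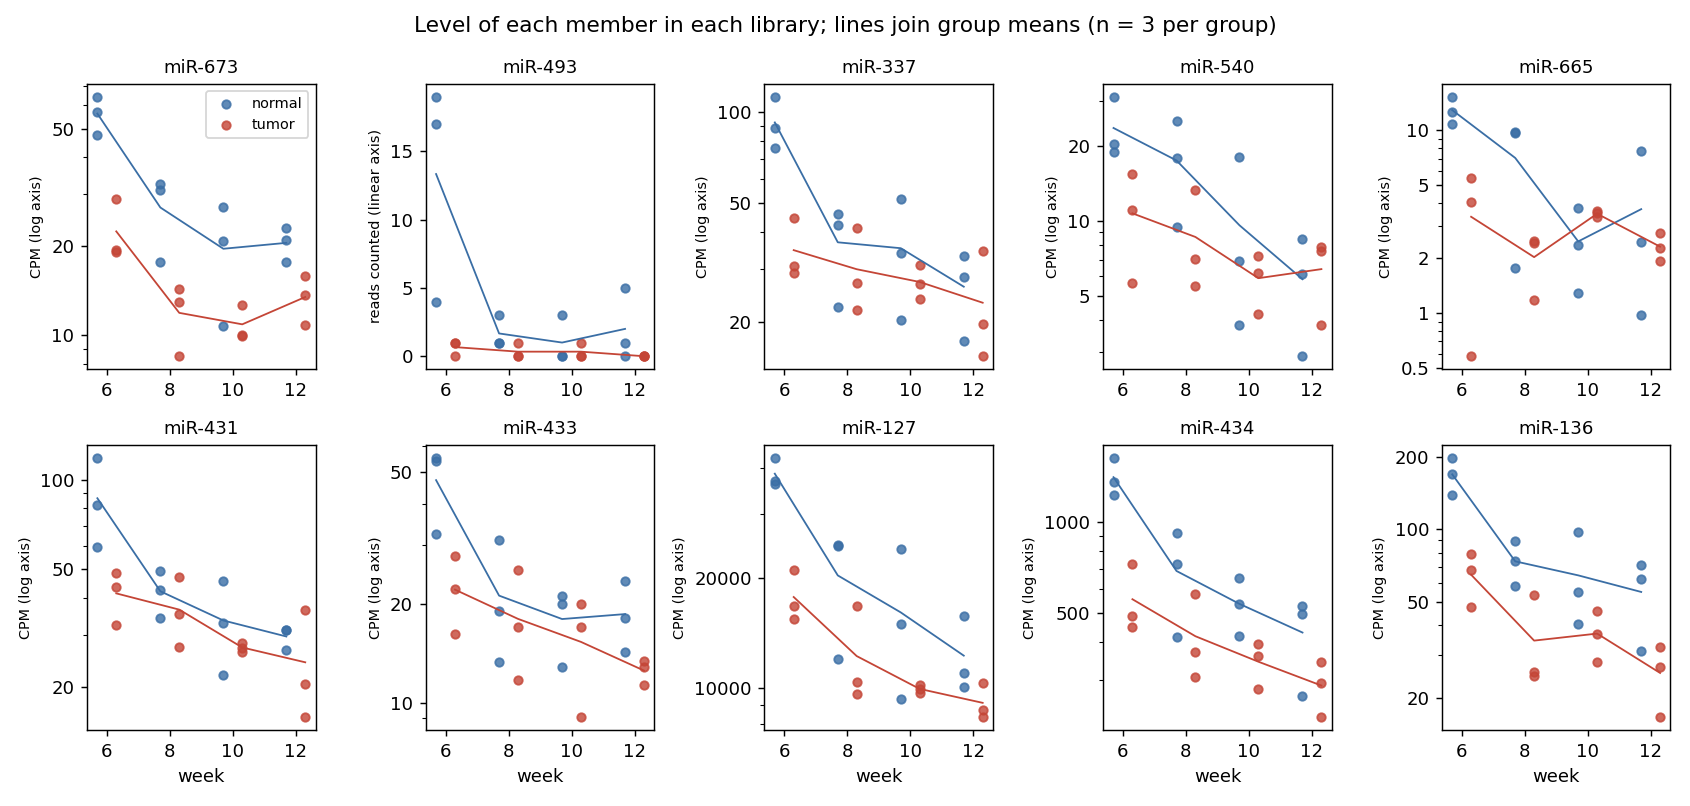
Level of each of the 10 miRNAs in each of the 24 libraries by week (x axis), in CPM on a log axis, or in reads counted on a linear axis for miR-493. Points are libraries, blue for normal and red for tumor, and lines join the means of 3 libraries. At week 6 the 3 normal points lie above the 3 tumor points in every panel, and in normal gland the mean is lower at week 12 than at week 6 in each.

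At week 6, when the transgenic glands were hyperplastic, the whole tested cluster was under-expressed in tumor. 9 of 9 tested members were called lower, against 29.5% of all tested miRNAs called lower, and log2 fold changes ran from -1.93 to -1.06 with a median of -1.32, against -0.12 over all miRNAs. For all 9 the 3 tumor libraries lay below the 3 normal libraries, as they did for 34.6% of all tested miRNAs.

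miR-127, which pairs with the Rtl1 transcript, stood at 36904, 36123 and 42656 CPM in normal gland and at 21056, 15432 and 16729 CPM in tumor at week 6. The highest tumor library was thus well below the lowest normal one. The means were 38561 ± 3568 CPM and 17739 ± 2945 CPM (SD, n = 3), a ratio of 0.460. The log2 fold change was -1.12 ± 0.16 (SE), with an edgeR quasi-likelihood adjusted p of 0.00182.

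miR-434, the second most abundant of the cluster and also antisense to Rtl1, measured 1630, 1230 and 1355 CPM in normal gland and 726, 488 and 450 CPM in tumor. The highest tumor value lay below the lowest normal one, and the ratio of the means was 0.395. Its log2 fold change was -1.34 ± 0.22 (edgeR adjusted p = 0.00296). miR-136, at the far end of the cluster, measured 198, 139 and 170 CPM in normal gland and 78.8, 67.8 and 47.7 CPM in tumor. Its log2 fold change was -1.38 ± 0.27 (edgeR adjusted p = 0.00540), and the groups did not overlap.

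The remaining Rtl1-antisense miRNAs were lower by less relative to their errors. miR-431 measured 119, 82.0 and 59.1 CPM in normal gland and 48.4, 32.3 and 43.6 CPM in tumor, with a log2 fold change of -1.06 ± 0.32 (edgeR adjusted p = 0.0233). miR-433 measured 55.3, 54.1 and 32.4 CPM in normal gland and 27.9, 16.1 and 22.1 CPM in tumor, with a log2 fold change of -1.09 ± 0.31 (edgeR adjusted p = 0.0211). In both, the lowest normal library lay above the highest tumor library by less than the spread within normal gland.

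The miRNAs between Meg3 and Rtl1 showed the same direction. miR-337 measured 113, 88.6 and 76.2 CPM in normal gland and 44.4, 30.7 and 29.1 CPM in tumor (log2 fold change -1.41 ± 0.27, edgeR adjusted p = 0.00507). miR-673, the nearest to Meg3, measured 64.3, 56.9 and 47.7 CPM in normal gland and 28.9, 19.4 and 19.2 CPM in tumor (log2 fold change -1.32 ± 0.26, edgeR adjusted p = 0.00543). The low members were less certain. miR-665 had 23, 36 and 59 counts in normal gland and 11, 5 and 1 in tumor, a log2 fold change of -1.93 ± 0.52 (edgeR adjusted p = 0.0172). miR-540 had 18.9, 20.2 and 31.4 CPM in normal gland and 15.5, 5.65 and 11 CPM in tumor, with a log2 fold change of -1.11 ± 0.38 (edgeR adjusted p = 0.0388).

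miR-493 was close to absent and was not tested. It had 17, 19 and 4 counts in the normal week 6 libraries and 1, 1 and 0 counts in the tumor week 6 libraries. In the other 18 libraries it had at most 5 counts. It was at 0 in 11 of the 24 libraries, including all 3 tumors of week 12, where a count of 0 allows up to 3 counts, or between 1.18 and 2.26 CPM in those 3 libraries. That limit and the counts cover counting error only.

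The week 6 calls depended on which libraries were in the fit. Leaving out tumor replicate 2 of week 6 reduced them from 9 to 5, with miR-540, miR-665, miR-431 and miR-433 no longer called. Leaving out any other library of that week kept 6 to 8 calls, and miR-127, miR-434, miR-136, miR-337 and miR-673 were called in all 6 such fits. With the 7 libraries high in muscle markers left out, 1 normal and 1 tumor library of week 6 remained, the lone libraries being taken to vary like the other groups. All 9 log2 fold changes were then still negative, from -4.55 to -0.40 with a median of -1.35. The -4.55 was miR-665, on 1 count in that tumor library and 59 in the normal one. With 1 library on each side, this fit cannot show which calls hold. Muscle content and the number of libraries also changed together in it.

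**Figure D2:**
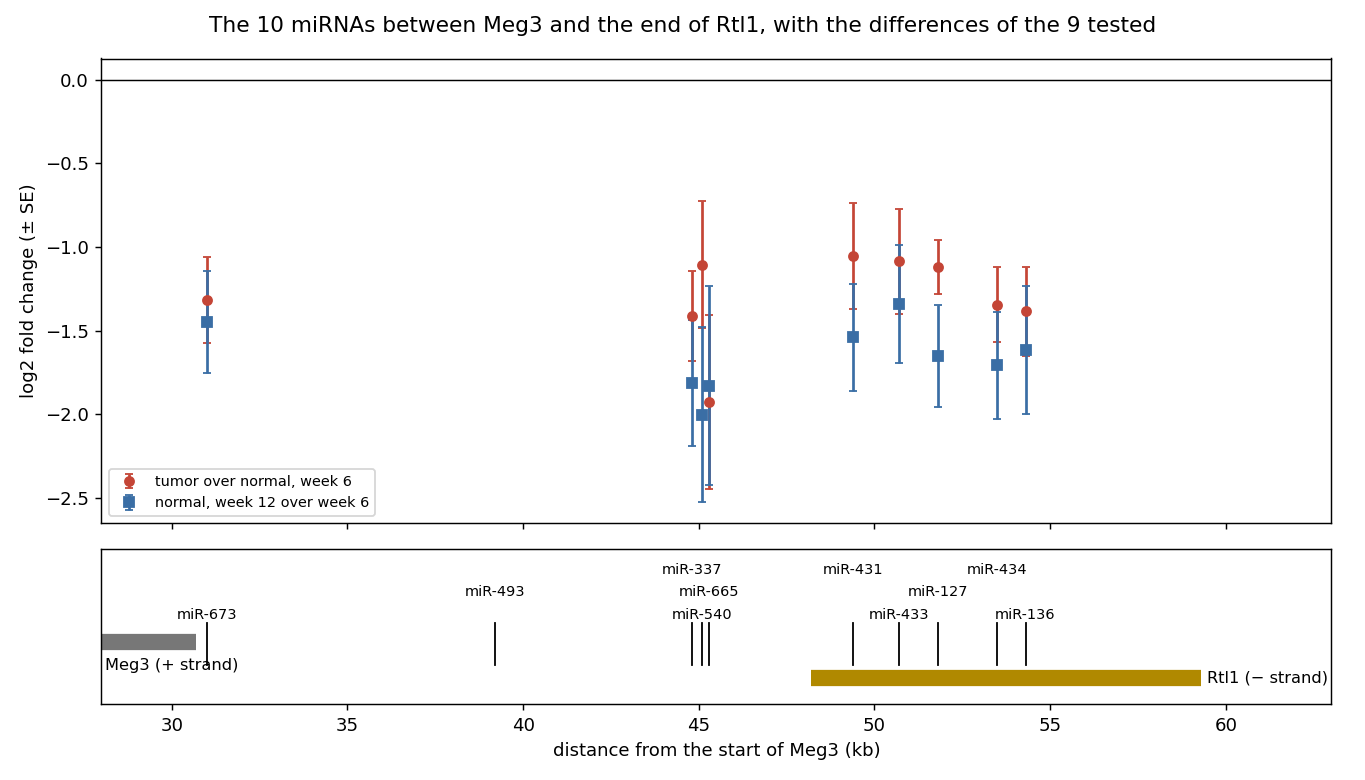
Upper panel, log2 fold change (± SE) of each of the 9 tested miRNAs plotted at its distance in kb from the start of Meg3, red circles for tumor over normal at week 6 and blue squares for week 12 over week 6 in normal gland. Lower panel, the 10 hairpins with the end of Meg3 and the whole of Rtl1. All 18 points lie below 0, from -2.0 to -1.06, both before and inside Rtl1, and miR-493 has no point because it was not tested.

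After week 6 few members were called at any one week. At week 8, 1 of 9 was called lower, miR-673, against 13.5% of all tested miRNAs. It measured 17.7, 32.5 and 31.0 CPM in normal gland and 8.50, 12.9 and 14.3 CPM in tumor (log2 fold change -1.19 ± 0.35, edgeR adjusted p = 0.0353). All 9 log2 fold changes were negative, from -1.62 to -0.20, against 52.7% negative over all tested miRNAs. miR-127 measured 11995, 24434 and 24538 CPM in normal gland and 9622, 10360 and 16714 CPM in tumor, and the groups overlapped through normal replicate 1 (log2 fold change -0.74 ± 0.32, edgeR adjusted p = 0.106).

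At week 10, 1 of 9 was called lower, miR-434, against 27.4% of all tested miRNAs. It measured 418, 534 and 654 CPM in normal gland and 359, 280 and 395 CPM in tumor (log2 fold change -0.64 ± 0.22, edgeR adjusted p = 0.0368). 8 of 9 log2 fold changes were negative, against 54% over all tested miRNAs, and miR-665 was at 0.52 ± 0.45 (edgeR adjusted p = 0.337). miR-127 measured 9356, 14992 and 23950 CPM in normal gland, a wide spread, and 9922, 9700 and 10219 CPM in tumor, the tightest group of the 8 (log2 fold change -0.70 ± 0.30, edgeR adjusted p = 0.0792).

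At week 12, 1 of 9 was called lower, miR-136, against 21.5% of all tested miRNAs. It measured 71.3, 62.3 and 31.2 CPM in normal gland and 32.6, 26.9 and 16.6 CPM in tumor, so that 1 normal library fell inside the tumor range (log2 fold change -1.10 ± 0.38, edgeR adjusted p = 0.0413). miR-127 measured 10972, 15784 and 10038 CPM in normal gland and 10314, 8699 and 8321 CPM in tumor (log2 fold change -0.43 ± 0.22, edgeR adjusted p = 0.144). 8 of 9 log2 fold changes were negative, against 56.5% over all tested miRNAs (7 of 9 with scaling by library size alone, where miR-337 was at 0.015), and miR-540 was at 0.15 ± 0.46 (edgeR adjusted p = 0.782).

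These 3 later calls were each lost on leaving out some single libraries, as were the week 6 calls of miR-540, miR-431, miR-433 and miR-665. The call of miR-673 at week 8 was lost without normal replicate 2 or 3 or tumor replicate 1 or 2, that of miR-434 at week 10 on leaving out any library of that week other than normal replicate 1, and that of miR-136 at week 12 on leaving out any library of that week other than normal replicate 3. Leaving out normal replicate 1 raised the calls to 3 at week 8 and to 4 at week 10, and leaving out normal replicate 3 raised those at week 12 to 2. Without tumor replicate 3 of week 8 there were 2 calls.

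**Figure D3:**
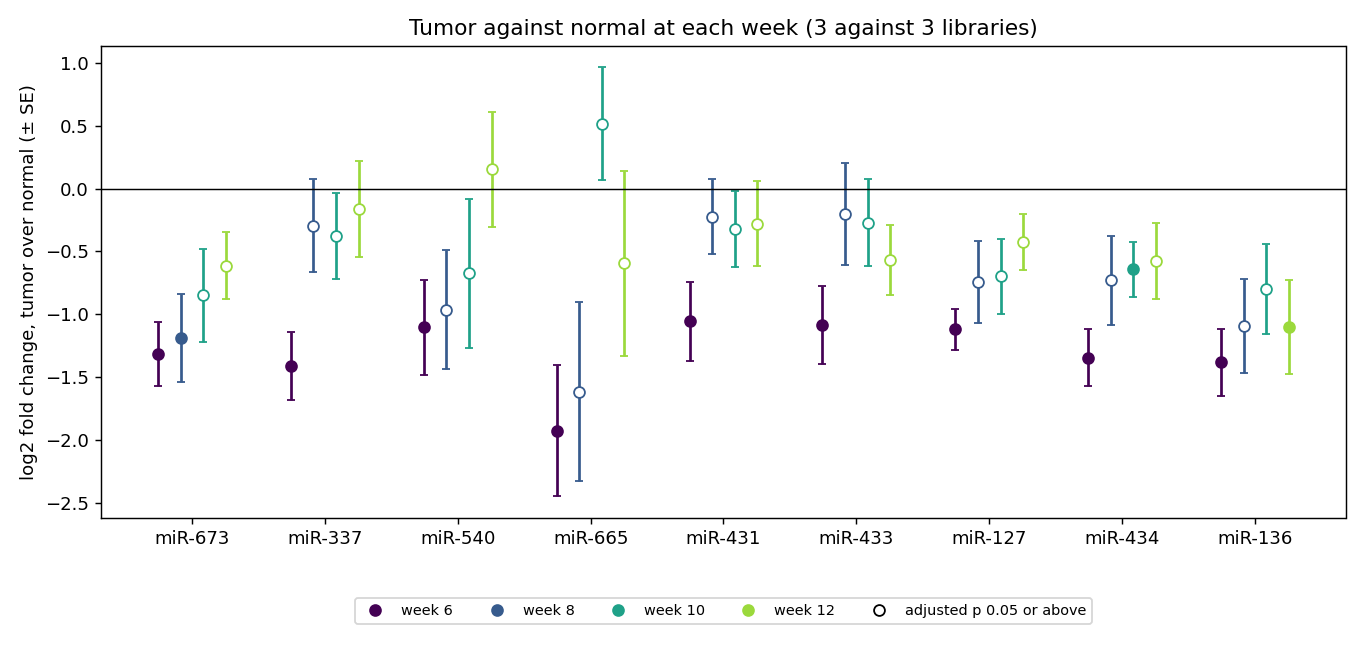
Log2 fold change of tumor over normal (y axis, ± SE) for each of the 9 tested miRNAs at weeks 6, 8, 10 and 12, from 3 against 3 libraries at each week. Filled points have an adjusted p under 0.05 and open points do not. The 9 week 6 points are all filled and lie between -1.93 and -1.06, whereas 1 point is filled at each later week.

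Over the 4 weeks together all 9 tested members were lower in tumor. In the fit of all 24 libraries, the mean of the 4 weekly differences was called lower for 9 of 9, against 46.8% of all tested miRNAs, with log2 fold changes from -1.09 to -0.46. miR-136 had the largest (-1.09 ± 0.19, edgeR adjusted p = 4.01e-05), followed by miR-673 (-0.99 ± 0.16, edgeR adjusted p = 1.42e-05). miR-127 stood at -0.74 ± 0.15 (edgeR adjusted p = 0.000163) and miR-434 at -0.82 ± 0.16 (edgeR adjusted p = 0.000100). The smallest were miR-431 (-0.46 ± 0.16, edgeR adjusted p = 0.0131) and miR-433 (-0.53 ± 0.18, edgeR adjusted p = 0.0119), which are neighbours inside Rtl1. miR-665 (-0.90 ± 0.36) and miR-540 (-0.65 ± 0.27) had the largest errors. miR-540 lost its call without normal week 10 replicate 3, tumor week 10 replicate 3 or tumor week 12 replicate 2, and miR-665 without normal week 10 replicate 3 or normal week 12 replicate 2. With the 7 libraries high in muscle markers left out, 5 of 9 were called, miR-673, miR-665, miR-127, miR-434 and miR-136, against 39.2% of all miRNAs called lower in the same fit (178 of 237 called in either direction), and all 9 remained negative.

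The narrowing from week 6 to week 12 did not pass a test of its own. The tumor-normal difference was tested for variation over the 4 weeks, and edgeR called 0 of 9 members, against 0% of all tested miRNAs. At an unadjusted p under 0.05 it was 0 of 9, against 3.8% of all tested miRNAs, and DESeq2 also called 0 of 9. The change of the difference between week 6 and week 12 was positive for all 9, from 0.28 to 1.32 on the log2 scale, while 46.8% of all tested miRNAs were negative. edgeR called 0 of 9, against 0.422% of all tested miRNAs, DESeq2 also called 0 of 9, and 1 of 9 had an unadjusted p under 0.05, against 13.1%. The 1 was miR-337, at 1.25 ± 0.53 (unadjusted p = 0.0294, edgeR adjusted p = 0.321). For miR-127 the change was 0.69 ± 0.42 (edgeR adjusted p = 0.432).

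The cluster also moved within normal gland. Between weeks 6 and 12, 9 of 9 tested members fell in normal gland, against 15.6% of all tested miRNAs called lower, with log2 fold changes from -2.0 to -1.34 and a median of -1.65, while the median over all miRNAs was 0.06. Over all miRNAs 13 were called higher and 37 lower, and with scaling by library size alone 2 and 43, under which the cluster was still called lower in 9 of 9, from -2.26 to -1.61. All 9 had week 12 libraries below all week 6 libraries, as had 16.9% of all tested miRNAs. Across the 4 weeks, the normal groups differed for 9 of 9, against 13.9% of all tested miRNAs (edgeR adjusted p from 0.00599 to 0.0373).

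In normal gland, miR-127 fell from 38561 ± 3568 CPM at week 6 to 20322 ± 7212 at week 8, 16099 ± 7360 at week 10 and 12265 ± 3083 at week 12 (mean ± SD, n = 3). The week 6 mean was 3.14 times the week 12 mean, and the log2 fold change was -1.65 ± 0.31 (edgeR adjusted p = 0.00171). The 3 later groups overlapped each other, and no later library reached the week 6 range. miR-434 followed closely, with means of 1405, 688, 535 and 430 CPM and a log2 fold change of -1.71 ± 0.32 (edgeR adjusted p = 0.00171). miR-136 fell from 169 ± 29.5 to 54.9 ± 21 CPM (log2 fold change -1.62 ± 0.38, edgeR adjusted p = 0.00559), with 73.6 and 64.4 CPM between.

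The lower members moved by similar amounts. miR-337 fell from 92.6 ± 18.7 to 26.2 ± 8.11 CPM (log2 fold change -1.82 ± 0.38, edgeR adjusted p = 0.00324) and miR-673 from 56.3 ± 8.29 to 20.6 ± 2.70 CPM (log2 fold change -1.45 ± 0.30, edgeR adjusted p = 0.00324). miR-431 fell from 86.6 ± 30 to 29.6 ± 2.55 CPM and miR-433 from 47.3 ± 12.9 to 18.6 ± 4.62 CPM, the latter with the smallest log2 fold change of the cluster, -1.34 ± 0.35 (edgeR adjusted p = 0.00951). miR-540 had the largest, -2.0 ± 0.52 (edgeR adjusted p = 0.00951), on 7 to 121 counts, and miR-665 stood at -1.83 ± 0.60 (edgeR adjusted p = 0.0326). The level was highest at week 6 for 9 of 9 members, against 29.1% of all tested miRNAs, and lowest at week 12 for 6 of 9, against 37.1%.

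The fall between weeks 6 and 12 was called for 7 to 9 members when each normal library was left out in turn, miR-665 losing its call without normal week 6 replicate 2 or 3 or week 12 replicate 1 or 3, and miR-433 without week 12 replicate 1. The test over the 4 weeks was less steady and called 3 of 9 without normal week 6 replicate 1 and 6 of 9 without replicate 2 or 3 of that week. With the 7 libraries high in muscle markers left out, 1 normal library of week 6 remained. All 9 log2 fold changes between weeks 6 and 12 stayed negative, from -2.34 to -0.51 with a median of -1.60. That of miR-433 went from -1.34 to -0.51 and that of miR-431 from -1.54 to -0.89, while those of miR-540, miR-434 and miR-136 did not shrink. With 1 library in a group, this fit cannot show which calls hold.

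In tumors the differences between weeks were mostly not called. All 9 log2 fold changes between weeks 6 and 12 were negative, from -1.34 to -0.51 with a median of -0.76, while 55.3% of all tested miRNAs were negative, and 1 of 9 was called, against 3.38% of all tested miRNAs called lower. Over all miRNAs 10 were called higher and 8 lower, and with scaling by library size alone 10 and 3, under which 0 of the cluster were called. The 1 call was miR-136, which measured 78.8, 67.8 and 47.7 CPM at week 6 and 32.6, 26.9 and 16.6 CPM at week 12 (log2 fold change -1.34 ± 0.39, edgeR adjusted p = 0.0387). Its call was lost without any 1 of the 3 week 6 tumor libraries or without week 12 replicate 2 or 3. miR-127 went from 17739 ± 2945 to 9111 ± 1059 CPM, a ratio of 1.95 with no overlap, and missed the threshold (log2 fold change -0.96 ± 0.30, edgeR adjusted p = 0.0596). It was called without tumor week 8 replicate 2 or 3. The test over the 4 weeks called 0 of 9 in tumors with edgeR, against 0% of all tested miRNAs, and 4 of 9 had an unadjusted p under 0.05, against 16.5%. DESeq2 also called 0 of 9 in that test, against 13 of 237 miRNAs. With the 7 libraries high in muscle markers left out, 0 of 9 were called between weeks 6 and 12, as were 0 of 237 miRNAs.

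**Figure D4:**
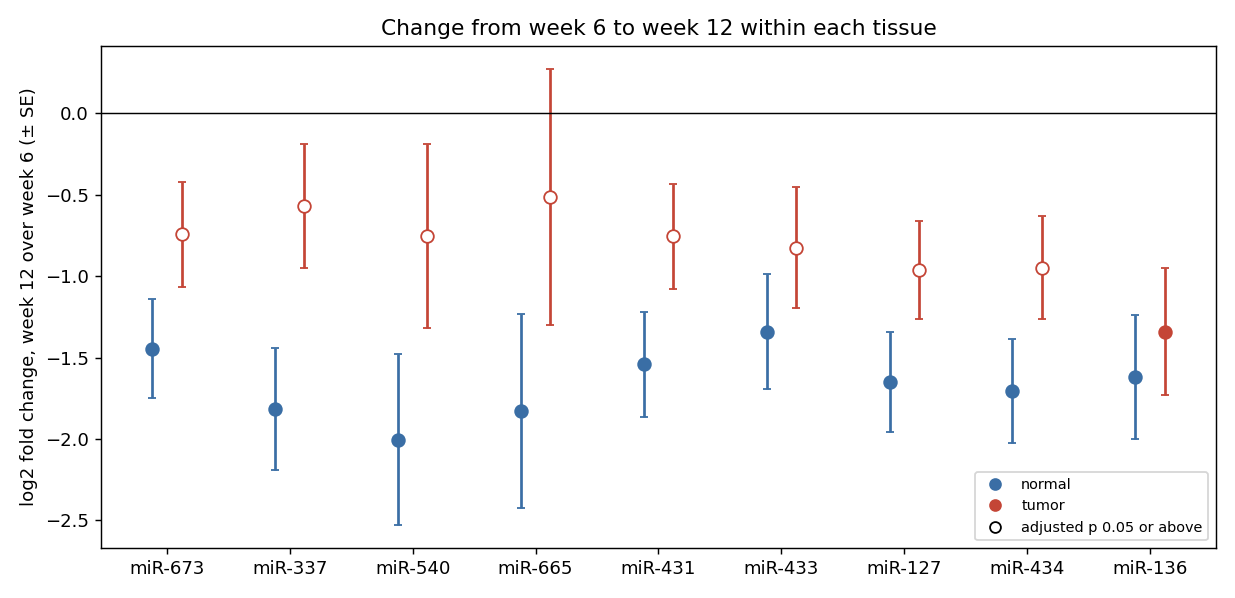
Log2 fold change of week 12 over week 6 (y axis, ± SE) for the 9 tested miRNAs, blue within normal gland and red within tumor, from 3 against 3 libraries. Filled points have an adjusted p under 0.05. The 9 normal points are filled and lie between -2.0 and -1.34, and the tumor points lie between -1.34 and -0.51 with miR-136 alone filled.

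The order of the miR-127 means was normal week 6, normal week 8, tumor week 6, normal week 10, normal week 12, tumor week 8, tumor week 10 and tumor week 12. Only the first of these stood apart, since its lowest library, at 36123 CPM, lay above the highest of any other group, at 24538 CPM. Tumors of week 6 (15432 to 21056 CPM) lay inside the range of normal gland of week 8 (11995 to 24538 CPM), and each other neighbour in the order overlapped as well.

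Marker miRNAs of other cell types also differed between tumor and normal gland at week 6, when 29.5% of all tested miRNAs were called lower. The fibroblast markers miR-199a, miR-199b and miR-214 were called lower in tumor in 3 of 3 cases. Their summed level was 13895 to 15300 CPM in normal gland and 6556 to 8040 CPM in tumor. The smooth muscle and myoepithelial markers miR-143 and miR-145 were lower in 2 of 2, at 144030 to 174649 CPM against 90136 to 101861 CPM, and the endothelial marker miR-126 was lower at 20802 to 26314 CPM against 11942 to 18254 CPM. Of the epithelial markers (the miR-200 and miR-183 families, miR-203 and miR-205), 8 of 10 were called higher in tumor. The other 2 had negative log2 fold changes and were not called. In sum the 10 stood at 57013 to 62304 CPM in tumor against 16062 to 22971 CPM in normal gland. No marker of these lists was at 0 in a whole group. Their part in the lower level of the cluster in tumor was not tested.

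Within normal gland few of these markers were called between the weeks. Between weeks 6 and 12, edgeR called 0 of 3 fibroblast, 0 of 2 smooth muscle and myoepithelial and 0 of 1 endothelial markers, and 1 of 10 epithelial markers. The 6 markers of the first 3 lists all had positive log2 fold changes with TMM, but with scaling by library size alone 4 of the 6, among them all 3 fibroblast markers, were negative. With TMM, fibroblast markers summed to 15000 to 19882 CPM in normal gland at week 12, beside 13895 to 15300 CPM at week 6, and with library size alone to 13309 to 15990 CPM beside 15559 to 16925 CPM. The cluster's sum, which is mostly miR-127, was 44445 CPM in the normal week 6 library with few muscle counts (muscle markers at 93.6 CPM). In the other 2 it was 39121 and 37812 CPM (muscle markers at 87497 and 29088 CPM). The members were divided. The library with few muscle counts was the highest of the 3 for miR-127, miR-540 and miR-665. It was the lowest for miR-673, miR-337, miR-431 and miR-433. Any part of muscle in the cluster's level was not tested. Erythroid (miR-144, miR-451 and miR-486), leukocyte (miR-142, miR-150, miR-155 and miR-223, the last at 0 in every group) and neural markers (miR-124, miR-9, miR-128, miR-129 and miR-138) were called lower in tumor at week 6 in 1 of 3, 1 of 3 and 1 of 4 tested, and edgeR called 0 of each list between weeks 6 and 12 in normal gland. Of the skeletal muscle markers 0 of 3 tested were called at week 6, with log2 fold changes from -2.71 to -2.0, and miR-206 was at 0 in 3 of the 8 groups.

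**Figure D5:**
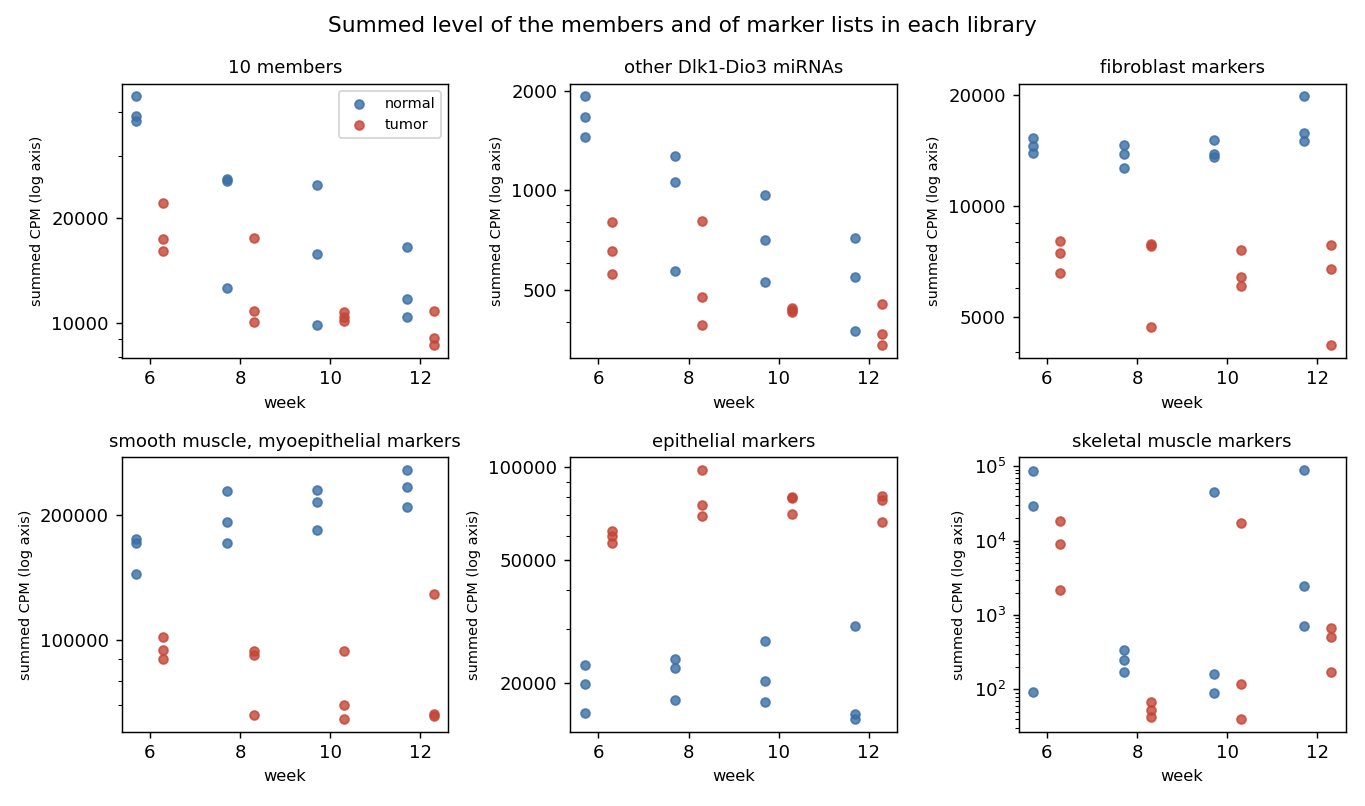
Summed CPM (log axis) in each library by week for the 10 miRNAs, the other Dlk1-Dio3 miRNAs and 4 marker lists, blue for normal and red for tumor. The cluster and the other miRNAs of the domain fall with week in normal gland, fibroblast markers stay between 12658 and 19882 CPM there, and skeletal muscle markers run from 39.9 to 89345 CPM.

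The other miRNAs of the domain were counted beside the cluster. Of 43 miRNAs in the table listed as other Dlk1-Dio3 miRNAs, GENCODE vM1 placed 36 between Dlk1 and Dio3 by gene name. It did not place the other 7 there. Of the 43, 30 were tested. At week 6, 27 of these 30 were called lower in tumor with a median log2 fold change of -1.31, beside 9 of 9 and -1.32 for the proximal cluster, and in normal gland 25 of 30 were called lower at week 12 than at week 6 with a median of -1.61, beside 9 of 9 and -1.65. The 4 most abundant were miR-411, miR-409, miR-379 and miR-134. Their week 6 log2 fold changes were -1.31 ± 0.22, -1.14 ± 0.34, -1.20 ± 0.25 and -1.35 ± 0.33, each called and each within the range of the cluster. miR-127 alone outweighed them, since the 43 summed to 339 to 1924 CPM per library.

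Likeness to the cluster was measured as the root mean square difference in log2 CPM over the 24 libraries between each miRNA and the mean of the 9 tested members, each centred on its own mean. Values were 0.13 to 0.54 for the members, which are themselves in that mean, 0.20 to 0.69 for the 30 others of the domain, and 0.46 to 3.44 for the 198 outside it. miR-127 was the nearest (0.13) and miR-434 the next (0.19). All of the 20 nearest miRNAs were members or on the list of other domain miRNAs. The nearest from outside were let-7i (0.46), miR-324 (0.48), miR-219 (0.54), miR-16 (0.55) and miR-455 (0.56). Of these, miR-455 was called lower in tumor at week 6 (log2 fold change -0.91 ± 0.26, edgeR adjusted p = 0.0198), and none of the 5 was called between weeks 6 and 12 in normal gland.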

How the data were processed

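Small RNA was extracted with miRNeasy, made into Illumina TruSeq libraries and sequenced in 2 lanes. Per the study's methods, the authors removed adaptors and barcodes, kept reads of 17 to 27 bases, aligned them with Bowtie and counted reads overlapping a miRBase miRNA by over 50%. The deposited values are raw counts per miRNA, named mm9 in the submitters' processing notes, and the study's methods name mm10. Coordinates were read from mm9 and GENCODE vM1. All columns of the table were used. The labels number the replicates, and the study's methods give 3 transgenic and 3 control mice per week, so libraries of a group were taken as separate animals.

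Groups came from the sample labels. The counts were tested with edgeR 4.0.16 in R 4.3.3 (quasi-likelihood, TMM, filterByExpr over the 8 groups, Benjamini-Hochberg over 237 miRNAs, adjusted p under 0.05), within each week (3 against 3) and in 1 fit of 24 libraries. SE is the log2 fold change divided by the root of F. The fits were tested on simulated counts. Alternatives were DESeq2 1.42.0 and its size factors, library sizes, 2 filters, lane, a replicate block and single libraries left out. Leaving out the libraries high in muscle markers was chosen after seeing the data. All 10 members, the 4 most abundant other domain miRNAs and the 5 miRNAs outside the domain nearest in pattern are named. The members and lists were chosen with earlier results of these data known. The limit given for a count of 0 covers counting error only, whereas SE and SD include the spread between libraries. No library duplicated another of its own group, and libraries of different groups were not compared in this way.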

Additional observations from a re-analysis of the deposited data

How the results depend on the processing

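Of the log2 fold changes of single members, alternatives other than leaving out 1 library left 535 on the same side of the threshold and in the same direction, and 27 passed and 29 lost the threshold. Scaling by library size alone moved the median of all miRNAs in normal gland at week 12 against week 6 from 0.06 to -0.23, and by over 0.1 at weeks 6, 8 and 12 of tumor against normal. The cluster's calls at week 6, on average and in normal gland stayed at 9 of 9 under scaling, DESeq2 and lane. They were 7 of 7 with at least 10 counts in every library. With no filter they were 10 of 10, or 9 of 10 for normal gland over the weeks. In the single fit of all libraries the week 6 calls were 8 of 9. miR-665, miR-540 and miR-493 are limited by depth.

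Calls among members changed most at the later weeks. At week 8 the 1 call became 2 with DESeq2 size factors or lane, 0 with library sizes, and 3 with the DESeq2 test or the fit of all libraries. It became 4 in the fit without the libraries high in muscle markers. None of those was of week 8, so the week 8 libraries were the same. At week 10 the 1 call became 3 with the DESeq2 test or at least 10 counts in every library, and 0 with lane or without the muscle-marked libraries. At week 12 it became 0 with library sizes or without the muscle-marked libraries. In tumors between weeks 6 and 12 the 1 call became 2 with DESeq2 size factors or lane, 3 with the DESeq2 test or at least 10 counts, and 0 with library sizes, no filter or without the muscle-marked libraries. Leaving those out kept 1 normal and 1 tumor library at week 6, so calls that use week 6 cannot be set beside those of the main fit. The median log2 fold change of the members was then -1.35 at week 6 and -1.60 for the fall in normal gland. In the main fits it was -1.32 and -1.65. The cause of the changed calls was not tested, and that alternative has 17 libraries.

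With 1 library left out, there were between 5 and 8 calls in week 6, between 0 and 3 in week 8, between 0 and 4 in week 10 and between 0 and 2 in week 12. The range was 7 to 9 on average, 3 to 9 for normal gland over the weeks, 7 to 9 for its fall, 0 to 2 for tumors between weeks 6 and 12, and 0 to 0 for both tests of a changing difference and for tumors over the weeks.

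Direction reversed in few cases. miR-337 at week 12 went to 0.015 with library sizes and 0.0059 without the muscle-marked libraries. Without the latter, miR-540 at week 10 went to 0.27, the week 6 to 12 change of the difference of miR-433 to -0.28, and the change in tumors of miR-665 to 1.97. With 1 library left out, the ranges crossing 0 were -0.44 to 0.14 for miR-433 at week 8, -1.05 to 0.046 for miR-540 and -0.50 to 0.01 for miR-433 at week 10, -0.70 to 0.17 for miR-337, -0.17 to 0.50 for miR-540 and -1.07 to 0.44 for miR-665 at week 12, and -1.02 to 0.16 for miR-665 between tumors.

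Deviations of tumor and normal libraries that share a number within a week correlated with r from 0.031 to 0.816, 10 of 12 pairs exceeding 0.1, and 17 of 24 libraries correlated best with their own number, a hint from the data only. With the replicate number as a block, there were 5 calls in place of 1 at week 8, 3 in place of 1 at week 10, 7 in place of 9 on average and 2 in place of 1 in tumors between weeks 6 and 12, and as many as before elsewhere. Over all miRNAs the block gave 131 calls at week 8 against 84.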

Other observations

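In some groups 1 library held the extreme value of every tested member, and in others it did not. In normal gland, replicate 1 was the lowest of the 3 libraries for 9 of 9 at weeks 8 and 10, as it was for 49.4% and 36.3% of all tested miRNAs. In tumors, replicate 1 of week 6 and replicate 3 of week 8 were the highest for 9 of 9, against 38.4% and 43.0% of all tested miRNAs. For the remaining extremes the members were more divided, to differing degrees. Replicate 3 of normal week 10, high in muscle markers, was the highest for 8 of 9, against 48.1% of all tested miRNAs. Replicate 1 of tumor week 12 was the highest for 7 of 9, against 29.1%. Replicate 3 of normal week 12 was the lowest for 7 of 9, against 36.3%. The library most often highest held 5 of 9 in normal gland of week 12 and in tumors of week 10, and 6 of 9 in normal gland of week 6, where replicate 3 was the highest for miR-127, miR-540 and miR-665 and the lowest for miR-673, miR-337, miR-431 and miR-433. In the same tumor week 8 library, 28 of the 30 other tested domain miRNAs were also the highest of their group. The ratio of the highest to the lowest library of a group had a median over members from 1.29 (tumor week 10) to 2.53 (normal week 10). The pooled SD between replicates, in log2 CPM, had a median of 0.44 over the members and 0.37 over all tested miRNAs.

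Of the other domain miRNAs, 13 of 30 were called lower in tumor at week 10, beside 1 of 9 proximal members and 27.4% of all tested miRNAs in the same comparison, with median log2 fold changes of -0.89 and -0.64. The difference between the 2 lists was not tested. 1 more hairpin between miR-434 and miR-136, miR-432, was in the table with no count in any library.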
